A study of Homo sapiens with 4 samples.

Results

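The genes described are the subunits of the condensins and the topoisomerases of type II, enzymes that shape mitotic chromosomes, read across cultures of a human ovarian clear cell carcinoma line that were treated with arsenic trioxide, a PI3K/mTOR inhibitor or both. They were chosen by gene symbol, 10 genes of the 26255 symbols in the deposited expression table. All 10 were listed once and passed the filter on low values, a mean of 1 FPKM or more (fragments per kilobase of transcript in every 1000000 mapped), which kept 12260 genes as the tested genes.

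Condensins are rings that use ATP to extrude DNA loops and so compact chromosomes when cells divide. SMC2 and SMC4 form the ATPase core of both complexes. Condensin I adds the kleisin NCAPH, which closes the ring, and the HEAT-repeat subunits NCAPD2 and NCAPG, while condensin II has NCAPH2, NCAPD3 and NCAPG2 in those places. Condensin II is in the nucleus throughout the cell cycle and condensin I reaches the chromosomes after the nuclear envelope breaks down. Type II topoisomerases pass a DNA duplex through a transient break in another duplex and thereby untangle sister chromatids. TOP2A is the isoform of dividing cells and a target of anthracyclines and etoposide, and TOP2B is made in resting cells as well and acts in transcription.

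The cells were TOV21G, an established line, and each group was 1 culture with 1 library. As2O3 (arsenic trioxide, a thiol-reactive drug used in acute promyelocytic leukaemia) was given at 1 µM for 48 h, GSK458 (an inhibitor of PI3K and mTOR) at 0.1 µM for 48 h, and the combination at both doses for 48 h. The control received no drug, and the sources used here do not give its time in culture. With no replicate, the differences below carry neither an error nor a p-value and describe 4 single libraries.

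The 4 libraries had summed FPKM between 543975 and 588892 and between 16157 and 16409 genes above 0. FPKM carry no read counts, so the depth is unknown. Steps between low values put the scale factors of the libraries at 85.8% to 109% of that of the control. These equal relative depths only if the values were scaled by depth alone. Of 11 markers of clear cell carcinoma and epithelium, 8 or 9 reached 1 FPKM in each library, with EPCAM at 0.608 to 1.71 FPKM and CDH1 at no more than 0.218 FPKM. The 5 endothelial markers stayed at or below 0.0380 FPKM. COL3A1 and LUM of 7 fibroblast markers and PTPRC and CD3E of 6 immune markers were listed at 0 in every library, the highest of the others being COL1A1 at 4.24 FPKM and CD68 at 4.15 FPKM, both with As2O3. In RNA from whole cultures, fewer dividing cells and less RNA per dividing cell cannot be told apart.

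GSK458 was set against the control to see the effect of blocking PI3K and mTOR. Transcripts of 8 of the 10 genes were at least 2-fold lower with GSK458 than in the control, and those of NCAPH2 and TOP2B were lower by less. Over all tested genes 3.87% were at least 2-fold lower and 2.35% were 2-fold higher or more. The median difference over the members was −1.69 on the log2(FPKM + 1) scale, the scale of all differences below, against −0.01 over all tested genes. None of the members was higher. This scale understates the change of low genes such as NCAPH.

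The 2 topoisomerases lay at opposite ends of the group. TOP2A stood at 67.2 FPKM with As2O3, 5.39 FPKM with GSK458, 13.9 FPKM with both drugs and 48.9 FPKM in the control. The GSK458 value was 11.0% of the control value, a difference of −2.97, and 34 of the 12260 tested genes had a lower difference. TOP2B had 56.2 FPKM with As2O3, 49.3 FPKM with GSK458, 46.8 FPKM with both and 58.0 FPKM in the control. Its GSK458 value was 85.1% of the control value (difference −0.23), the smallest change of the 10 genes. TOP2A was therefore the more abundant isoform in the As2O3 library and the less abundant in the other 3.

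To show the DNA beside these contrasting genes, the upstream sequence of both topoisomerase genes is given, with that of NCAPH, the member with the lowest GSK458 level. The sequences are from RefSeq on GRCh38.p14, whereas the submitters' processing notes name hg19. Each is the longest stretch of the 250 bases before the start site that lies outside annotated exons (GENCODE 29), read 5′ to 3′ on the strand of the gene. Capitals mark TTTGAA, the core of the cell cycle homology region bound by the DREAM and MuvB complexes, and CCAAT, the site of the factor NF-Y, in either orientation (TTCAAA and ATTGG are the reverse).
TOP2A (chr17:40417951-40418146, minus strand): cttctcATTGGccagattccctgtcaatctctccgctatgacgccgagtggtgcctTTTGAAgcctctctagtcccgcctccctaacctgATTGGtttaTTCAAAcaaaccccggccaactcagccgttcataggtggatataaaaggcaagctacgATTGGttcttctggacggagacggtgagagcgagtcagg
TOP2B (chr3:25664940-25665157, minus strand): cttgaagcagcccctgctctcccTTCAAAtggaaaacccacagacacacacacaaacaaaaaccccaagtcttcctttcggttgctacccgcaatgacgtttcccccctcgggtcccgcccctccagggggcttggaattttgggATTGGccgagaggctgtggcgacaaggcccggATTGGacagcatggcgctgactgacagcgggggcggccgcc
NCAPH (chr2:96335516-96335765, plus strand): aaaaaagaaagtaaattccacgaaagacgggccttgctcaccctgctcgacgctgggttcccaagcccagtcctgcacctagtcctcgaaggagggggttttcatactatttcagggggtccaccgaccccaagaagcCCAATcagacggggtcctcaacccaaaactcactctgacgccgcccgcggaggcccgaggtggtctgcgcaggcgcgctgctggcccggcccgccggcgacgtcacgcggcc

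The TOP2A stretch held TTTGAA at 194 and 151 bases before the start site and CCAAT at 244, 160 and 93 bases, and another CCAAT at 53 bases lies in the part not printed. Promoters with 4 or more CCAAT made up 0.991% of the 35116 promoters of 300 bases in the RefSeq table, and the promoter of NCAPD2 also had 4. The TOP2B stretch held TTTGAA at 227 bases and CCAAT at 105 and 73 bases before this start, and the promoter of its other start held none. NCAPH had a single CCAAT at 112 bases and no TTTGAA. In the 13 promoters of the 9 matched members, TTTGAA was found in 8 promoters, belonging to 8 genes, and CCAAT in 5 promoters, belonging to 5 genes. Among all RefSeq promoters 15.2% held TTTGAA and 34.6% held CCAAT. The E2F-type words TTTCCCGC and TTTGGCGC were found in 1 member promoter, of NCAPD3, and in 2.27% of all promoters. No searched motif overlapped another in the printed stretches. Both isoforms thus had both motifs in 1 promoter, and 5.90% of all promoters did.

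**Figure D1:**
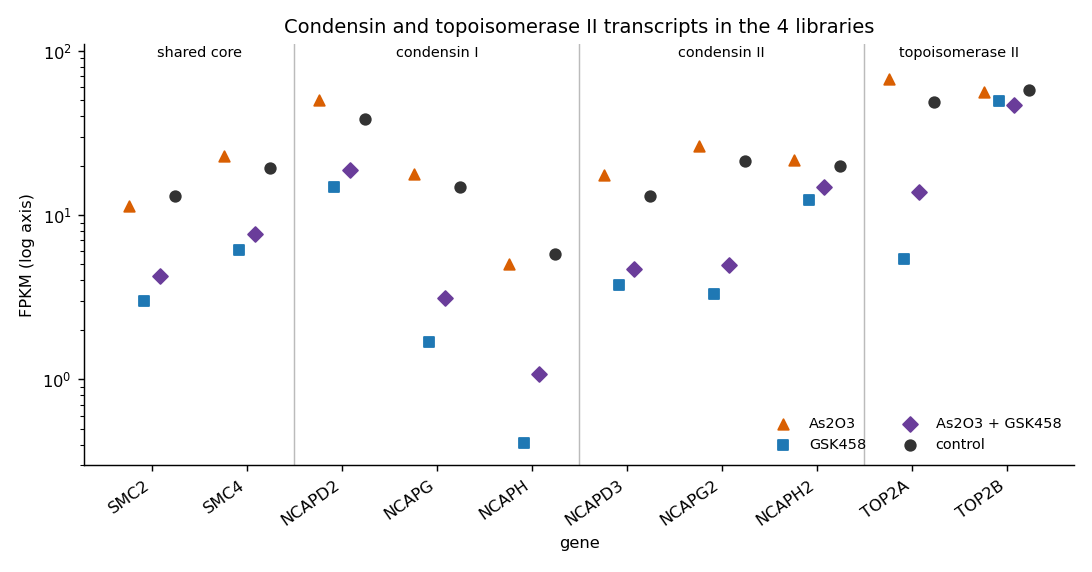
FPKM of each gene (log axis) in the As2O3 (triangles), GSK458 (squares), combination (diamonds) and control (circles) libraries, 1 library each. The GSK458 and combination points lie below the As2O3 and control points for every gene, and the GSK458 point lies farthest below the control point for NCAPH, TOP2A and NCAPG and least far for TOP2B.

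The shared core was lower with GSK458 in both of its subunits. SMC2 stood at 11.3 FPKM with As2O3, 2.99 FPKM with GSK458, 4.26 FPKM with both and 13.0 FPKM in the control. SMC4 had 22.8, 6.10, 7.67 and 19.4 FPKM, in that order. The GSK458 values were 22.9% and 31.5% of the control values for SMC2 and SMC4, differences of −1.81 and −1.52. SMC4, which pairs with SMC2 in the ring, was the more abundant partner in every library, by a ratio of 2.02 with As2O3, 2.04 with GSK458, 1.80 with both and 1.49 in the control.

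Condensin I held the 2 least abundant of the 10 transcripts in the GSK458 library. NCAPH stood at 5.04 FPKM with As2O3, 0.412 FPKM with GSK458, 1.07 FPKM with both and 5.81 FPKM in the control. It was the least abundant of the 10 transcripts in all 4 libraries, and its GSK458 value was 7.08% of the control value. On the log2(FPKM + 1) scale the NCAPH difference was −2.27. It ranged from −3.53 with a pseudocount of 0.1 FPKM to −0.998 with 5 FPKM, which is just short of 2-fold. NCAPG stood at 17.9, 1.69, 3.13 and 14.8 FPKM, again for As2O3, GSK458, both and control, so that the GSK458 value was 11.4% of the control value (difference −2.56). NCAPD2 stood at 50.1, 14.8, 18.7 and 38.5 FPKM, with GSK458 at 38.4% of the control (difference −1.32). NCAPD2 was the most abundant condensin subunit in every library and the least lowered of the condensin I set.

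Condensin II was split between its subunits. NCAPG2 stood at 26.4 FPKM with As2O3, 3.31 FPKM with GSK458, 4.97 FPKM with both and 21.3 FPKM in the control, and the GSK458 value was 15.5% of the control value (difference −2.37). NCAPD3 had 17.4, 3.75, 4.68 and 13.1 FPKM in those libraries, with GSK458 at 28.6% of the control (difference −1.57). The kleisin NCAPH2 stood at 21.7, 12.3, 14.7 and 19.9 FPKM. Its GSK458 value was 62.1% of the control value (difference −0.65), and 1056 of the tested genes had a lower difference. The 2 kleisins thus differed in their change, NCAPH by −2.27 and NCAPH2 by −0.65, while the G subunits NCAPG and NCAPG2 lay close together at −2.56 and −2.37.

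**Figure D2:**
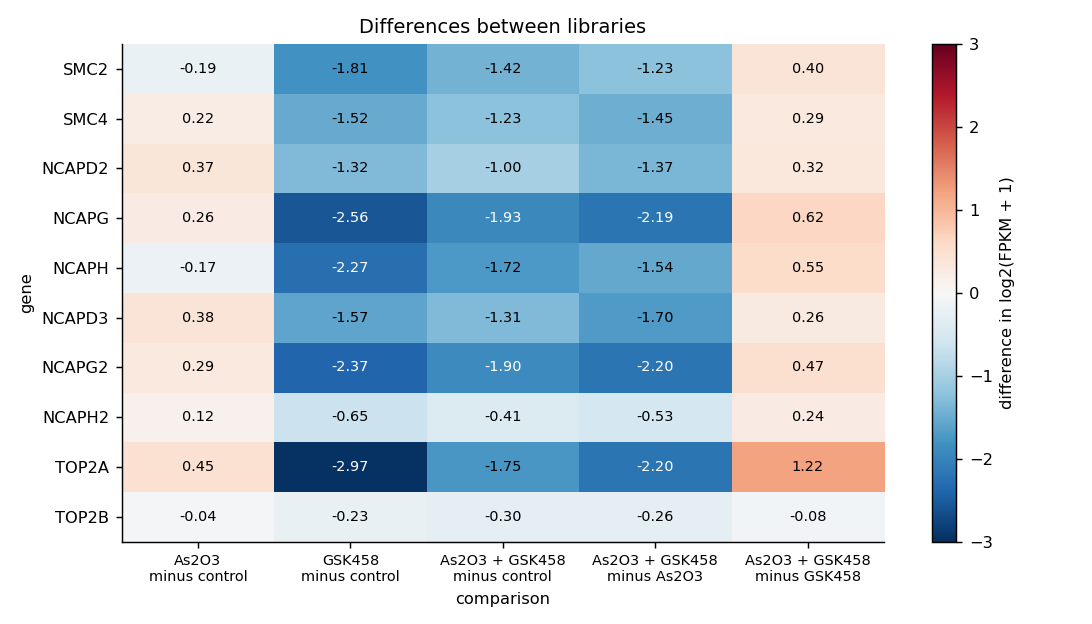
Difference in log2(FPKM + 1) between libraries for each gene (rows) in 5 comparisons (columns), with blue for lower and red for higher in the first-named library. The 3 columns in which GSK458 was added are blue throughout, palest for NCAPH2 and TOP2B. In the first and last columns TOP2A, at 1.22 in the last, is the single value past 1.

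The same question was asked again in the presence of arsenic, from the combination and As2O3 libraries, neither of which entered the first pair. The same 8 genes were at least 2-fold lower in the combination than with As2O3 alone, where 4.27% of all tested genes were and 2.28% were 2-fold higher or more. The median member difference was −1.5, against −0.02 over all tested genes. All 8 were at least 2-fold lower in both pairs, as were 306 of the 12260 tested genes (2.50%). TOP2A, NCAPG2 and NCAPG had the lowest differences, −2.20, −2.20 and −2.19, and their combination values were 20.6%, 18.8% and 17.5% of the As2O3 values. NCAPH2 at 68.1% and TOP2B at 83.2% of the As2O3 value were again the least lowered. A pseudocount of 5 FPKM left 6 members at least 2-fold lower in the combination against As2O3, beside 276 tested genes. It left 7 members in GSK458 against the control, beside 258 tested genes. SMC2 (−0.82) and NCAPH (−0.73) fell short in the former and NCAPH (−0.998) in the latter.

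**Figure D3:**
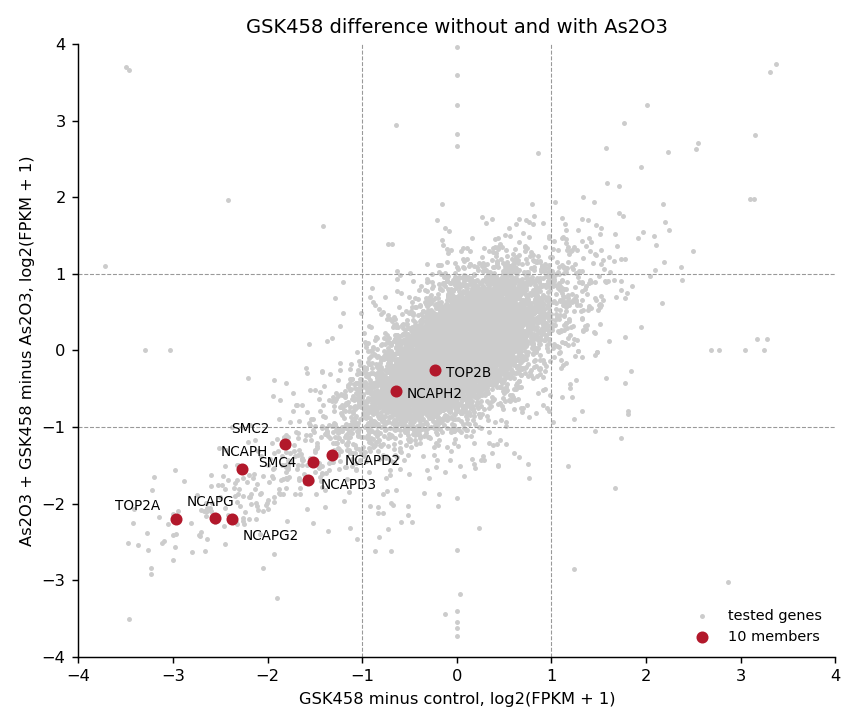
Difference in log2(FPKM + 1) for GSK458 without As2O3 (x axis, GSK458 minus control) and with As2O3 (y axis, combination minus As2O3) for the tested genes (grey) and the 10 members (red), with dashed lines at 2-fold. Of the members, 8 lie beyond both lower lines and NCAPH2 and TOP2B lie inside them. The plot leaves out 20 genes beyond its axes.

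As2O3 alone was set against the control to see the effect of arsenic. None of the 10 genes was 2-fold apart in either direction, against shares of 2.07% (higher) and 1.41% (lower) over the tested genes. With libraries rescaled to equal sums of 1000000, 263 (higher) and 315 (lower) of 12954 tested genes were past 2-fold. These stand in place of 254 and 173 of 12260, and the members past it were still 0. The rescaling also raised all values against the fixed filter and pseudocount, so the change is not from equal sums alone. TOP2A had the highest value, 137% of the control (difference 0.45), followed by NCAPD3 at 133% and NCAPD2 at 130%. SMC2 at 86.6%, NCAPH at 86.8% and TOP2B at 96.9% of the control were the members below it. The median difference was 0.24, against 0.01 over all tested genes. The sign of each of these differences was the same under every scaling tried.

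The combination was set against the control and against GSK458 alone to ask what both drugs do together. Against the control, 8 genes were at least 2-fold lower, as were 4.31% of the tested genes (3.25% were 2-fold higher or more), with a median difference of −1.36 against −0.01 over all tested genes. NCAPG, NCAPG2 and TOP2A stood at 21.2%, 23.3% and 28.3% of the control. NCAPD2 lay just past the threshold, at 48.6% of the control with a difference of −1.003. With 5 FPKM in place of 1 FPKM as the pseudocount, 3 members were at least 2-fold lower, as were 257 of the 12260 tested genes, beside 528 with 1 FPKM.

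Against GSK458 alone, 9 of the 10 transcripts were higher in the combination and TOP2B was lower, by a difference of −0.08. The median member difference was 0.36, against 0.003 over all tested genes. TOP2A was the single member at least 2-fold higher, 2.57 times the GSK458 value with a difference of 1.22, where 0.644% of all tested genes were (0.318% were 2-fold lower or more), and 46 tested genes had a higher difference. NCAPH was 2.60 times its GSK458 value, but at levels near 1 FPKM its difference was 0.55. NCAPG and NCAPG2 were 1.86 and 1.5 times their GSK458 values, and at a threshold of 1.5-fold NCAPG joined TOP2A, where 2.19% of all tested genes were higher by that much. The other condensin subunits lay between 1.19 times for NCAPH2 and 1.42 times for SMC2. In no setting was TOP2B higher. The combination comparisons with the control and with GSK458 share the combination library.

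The departure from additivity, the log2 difference of the combination from the control less the sum of the 2 single-drug differences, had a median of 0.15 over the members and 0.00 over all tested genes. It was positive, meaning a combination value above the sum of the single-drug differences, for 7 genes, led by TOP2A at 0.77, NCAPH at 0.73 and SMC2 at 0.59. A positive sign is common where the median of all tested genes is 0.00. Of the tested genes, 388, 452 and 788 had a higher departure than TOP2A, NCAPH and SMC2, in that order. The departure was −0.12 for NCAPD3, −0.05 for NCAPD2 and −0.03 for TOP2B, and these 3 were positive with libraries rescaled to equal sums. The departure rests on single values of all 4 libraries.

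FPKM are per length, so levels of different genes can be set side by side. The 3 subunits particular to condensin I summed to 73.0 FPKM with As2O3, 16.9 FPKM with GSK458, 22.9 FPKM with both and 59.1 FPKM in the control. Those of condensin II summed to 65.5, 19.4, 24.4 and 54.4 FPKM. The ratio of the sums was 1.11 with As2O3, 0.871 with GSK458, 0.940 with both and 1.09 in the control, while the shares of the subunits within each complex differed more. NCAPH2 made up 33.1% of the condensin II sum with As2O3, 63.6% with GSK458, 60.4% with both and 36.6% in the control. NCAPD2 made up 68.6%, 87.6%, 81.7% and 65.2% of the condensin I sum. The ratio of the kleisins NCAPH2 to NCAPH was 4.30 with As2O3, 30.0 with GSK458, 13.8 with both and 3.43 in the control. As a ratio of geometric means, which weighs the 3 subunits equally, condensin I to condensin II was 0.767 with As2O3, 0.406 with GSK458, 0.568 with both and 0.841 in the control. The direction depended on the subunits summed. Without NCAPH and NCAPH2 the ratio of the sums was 1.55 with As2O3, 2.34 with GSK458, 2.26 with both and 1.55 in the control. Of the pairs left, NCAPD2 to NCAPD3 was 3.95 with GSK458 and 2.94 in the control. NCAPG to NCAPG2 was 0.509 and 0.693 in those libraries.

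TOP2A made up 54.5% of the summed topoisomerase II FPKM with As2O3, 9.84% with GSK458, 22.8% with both and 45.7% in the control. The sum of both isoforms was 123 FPKM with As2O3, 54.7 FPKM with GSK458, 60.6 FPKM with both and 107 FPKM in the control. Most of that difference came from TOP2A, since TOP2B varied between 46.8 and 58.0 FPKM.

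**Figure D4:**
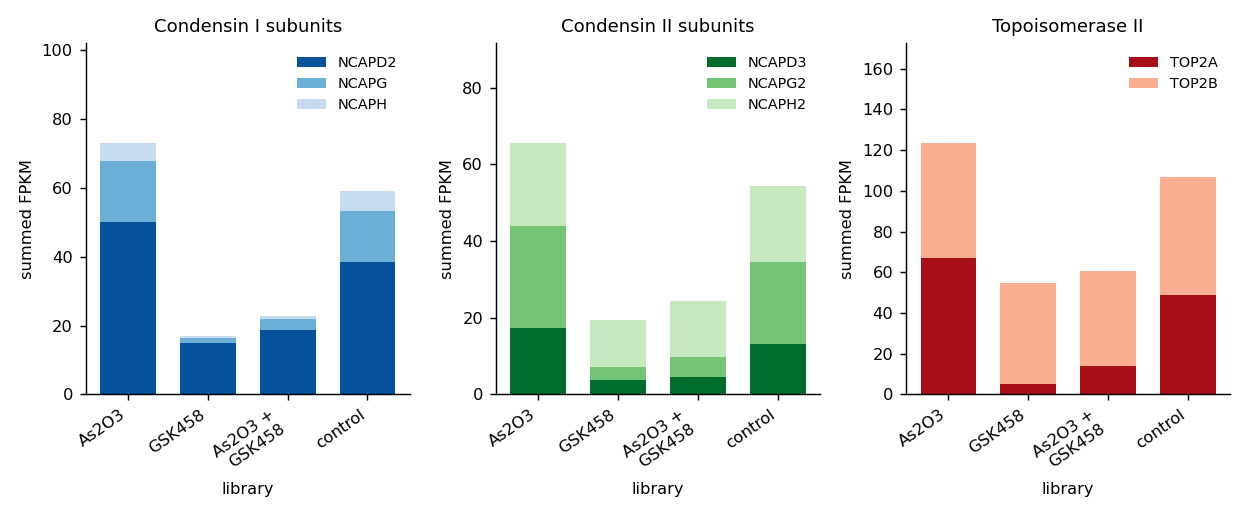
Summed FPKM of the subunits particular to condensin I, of those particular to condensin II and of the topoisomerase II isoforms, stacked by gene, in the 4 libraries. With GSK458 and with both drugs the bars are shorter, and NCAPD2, NCAPH2 and TOP2B fill most of them.

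Related machines were read from lists of genes beside the members. For GSK458 against the control, 3.87% of all tested genes were at least 2-fold lower and 2.35% were 2-fold higher or more. In lists this short, a single gene past 2-fold, or none, cannot be told from those shares. Cohesin is the ring that holds sister chromatids together. Of its 12 ring and loading genes, 1 was at least 2-fold lower with GSK458 (median −0.07), and that was SMC1A, an ATPase of the ring, at 12.3 FPKM with GSK458 and 33.5 FPKM in the control. RAD21, the kleisin, had a difference of −0.31, and the highest were MAU2 and NIPBL, which load the ring, at 0.30 and 0.15. All 6 of its cell cycle regulators were at least 2-fold lower (median −2.04). Lowest on the log2(FPKM + 1) scale were ESPL1, the protease that opens the ring at anaphase, and CDCA5, which protects cohesion. ESPL1 stood at 1.01 FPKM with GSK458 and 11.3 FPKM in the control, and CDCA5 at 2.51 and 20.3 FPKM. In FPKM without the pseudocount, ESCO2 at 5.31% and SGOL1 at 6.87% of the control lay below ESPL1 at 8.97% and CDCA5 at 12.4%. The highest of the 6 were PTTG1, the inhibitor of ESPL1, and SGOL2, a protector of centromeric cohesion, with differences of −1.39 and −1.54.

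The SMC5/6 complex, another relative that acts in DNA repair, had no gene 2-fold apart between GSK458 and control among 8 tested of 9 (median −0.02). NSMCE4A and NSMCE1 were lowest at −0.69 and −0.27, and FAM178A and NSMCE2 highest at 0.70 and 0.39. In the combination against As2O3, 1 of the 8 was at least 2-fold lower, NSMCE4A at −1.10, beside 4.27% of all tested genes. Another list held 10 genes of other topoisomerases, their partners and the repair of their adducts. BLM was its single gene at least 2-fold lower with GSK458 on the log2(FPKM + 1) scale. BLM, a helicase that works with topoisomerase III, stood at 0.441 FPKM with GSK458 and 3.76 FPKM in the control. RMI2, a partner of BLM, followed at −0.96 and RMI1 at −0.94. In FPKM without the pseudocount both were past 2-fold, with RMI2 at 47.1% and RMI1 at 41.7% of the control. TOP1MT, the mitochondrial enzyme, was highest at 0.65, and TOP3B stood at 0.02.

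Of 18 regulators and partners of condensin on mitotic chromosomes, 14 were at least 2-fold lower with GSK458 (median −2.56), beside 3.87% of all tested genes. Lowest were BIRC5, the survivin subunit of the chromosomal passenger complex, at 1.81 FPKM with GSK458 and 29.2 FPKM in the control, and MKI67, the coat protein of mitotic chromosomes, at 2.08 and 31.7 FPKM. Highest were SET at 0.15 and PPP2R1A, the scaffold of phosphatase 2A, at 0.03. Of 19 transcription factors of the cell cycle gene program, 5 were at least 2-fold lower on the log2(FPKM + 1) scale (median −0.40). E2F7 at 40.9% and LIN9 at 48.4% of the control were past 2-fold only in FPKM without the pseudocount. FOXM1, an activator of mitotic genes, stood at 1.65 FPKM with GSK458 and 20.0 FPKM in the control, and E2F2 at 0.331 and 5.79 FPKM. RBL2, a pocket protein of the DREAM complex, and E2F3 were highest at 0.26 and 0.20.

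With As2O3 alone no gene of these 6 lists was 2-fold apart from the control, where 2.07% of all tested genes were higher and 1.41% lower by that much. At those shares few list genes would be past 2-fold, so finding none says little. STAG1 came closest, at 50.7% of the control (difference −0.88). In the combination against GSK458 the medians were 0.67 for the cohesin regulators and 0.72 for the condensin regulators, beside 0.36 for the members, 0.03 for the cohesin ring, −0.13 for SMC5/6, 0.10 for other topoisomerases and 0.14 for the transcription factors.

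**Figure D5:**
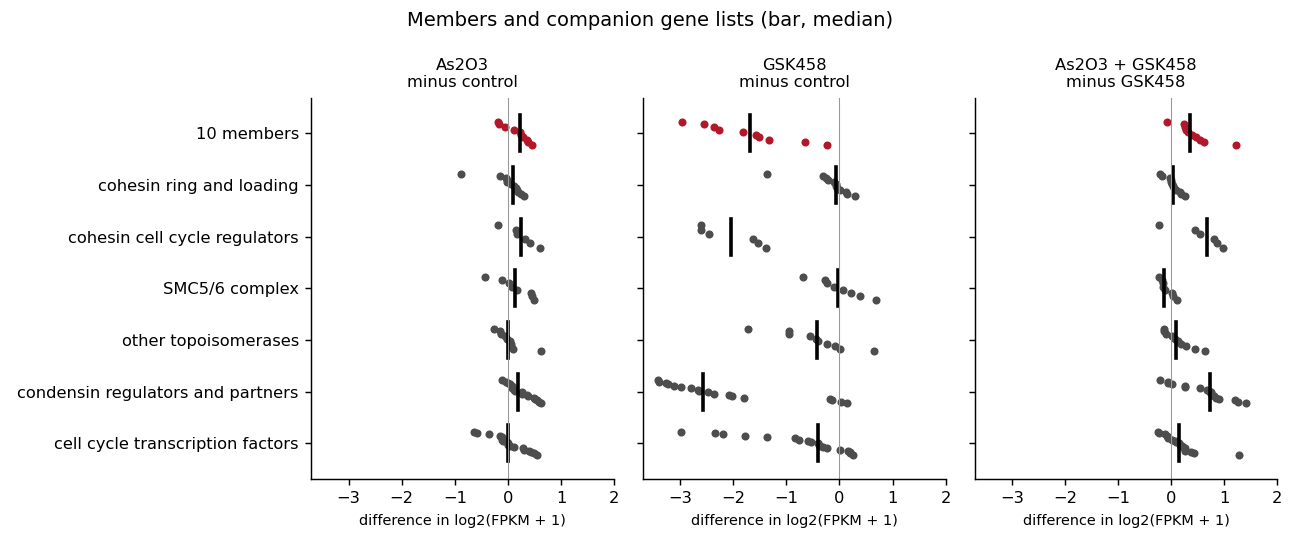
Difference in log2(FPKM + 1) of the 10 members (red) and of the genes of 6 related lists (grey) for As2O3 minus control, GSK458 minus control and combination minus GSK458, 1 point per gene and a bar at the median. With GSK458 the members, the cohesin regulators and the condensin regulators lie mostly below −1, while the cohesin ring and SMC5/6 lie around 0.

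The genes with the pattern most like that of TOP2A were sought by the root mean square distance over the 3 differences from the control, among 9113 other genes that averaged 5 FPKM or more. The nearest were DLGAP5, a spindle protein, CDKN3, NDC80, an outer kinetochore protein, CEP55, a protein of cell abscission, and CENPA, the centromeric histone, at distances of 0.14 to 0.19. DLGAP5 stood at 31.4 FPKM with As2O3, 2.03 FPKM with GSK458, 5.13 FPKM with both and 23.2 FPKM in the control. Among those nearest to the median profile of the 3 condensin I subunits were CDCA2, FAM83D, KIF23 and TROAP, at distances of 0.03 to 0.11. CDCA2 had 11.1, 0.996, 1.98 and 8.79 FPKM in that order.

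Some members share exonic bases with a gene on the opposite strand in GENCODE 29. The library kit is stranded, but the sources used here do not say whether the quantification used strand, so these values are uncertain. NCAPD2 shares 486 bases with MRPL51, a mitochondrial ribosomal protein gene at 131 FPKM with GSK458 and 189 FPKM in the control. NCAPG shares 1631 bases with LCORL, at 6.26 and 8.72 FPKM, and SMC4 shares 607 bases with IFT80, at 13.7 and 11.9 FPKM, and 1561 bases with TRIM59, at 4.77 and 6.28 FPKM. NCAPD3 shares 249 bases with VPS26B, at 24.1 FPKM with GSK458 and 22.9 FPKM in the control, and 465 bases with JAM3, at 0.0599 and 0.282 FPKM. TOP2B shares 28 bases with RARB, at 0.138 FPKM with GSK458 and 0.391 FPKM in the control. SMC2, NCAPH, NCAPG2, NCAPH2 and TOP2A share none.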

How the data were processed

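RNA of 4 TOV21G cultures was sequenced, 1 library per group, with groups and doses taken from the sample labels. The deposited table holds FPKM values that the authors made from their reads. The submitters' processing notes name Cuffdiff 2.2.1, TopHat2 2.1.1, SAMtools 0.1.18 and Bowtie2 2.2.8, without roles, and the build hg19. The sources used here do not give the annotation, the strand setting or the handling of multiply mapped reads. Values were used as deposited, with Python 3.11.15 and pandas 2.3.3. Differences were taken on the log2 scale after adding 1 FPKM, genes with a mean below 1 FPKM were left out, and 2-fold on that scale was the threshold. No test was run, since each group has 1 library. The relative scale factors of the libraries came from ratios shared by many genes below 0.5 FPKM in the control. Motifs were searched on both strands of RefSeq promoters (250 bases before to 50 after the start), which matched 9 of 10 members, all but NCAPH2. The calculations were tested on simulated data.

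The members and lists were chosen with earlier results of these data known. Named from each related list were the 2 genes with the highest and the 2 with the lowest GSK458 minus control difference, and the 5 genes nearest to TOP2A and to the condensin I median, leaving out small RNA genes. Not every gene that this rule picks is reported here. Every other gene named was chosen after its values were seen. Alternatives were a threshold of 1.5-fold, upper-quartile scaling, rescaling to a sum of 1000000, median-of-ratios scaling, dropping the filter or raising it to 5 FPKM, pseudocounts of 0.1 and 5 FPKM, and other ways to form the ratios.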

Additional observations from a re-analysis of the deposited data

Results flagged for a closer look

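The difference made by As2O3 had opposite signs without and with GSK458 for SMC2 and NCAPH. SMC2 was lower with As2O3 than in the control (difference −0.19) and higher in the combination than with GSK458 (0.40), so that the second difference exceeded the first by 0.59. NCAPH was likewise lower without GSK458 (−0.17) and higher with it (0.55), a gap of 0.73. Each difference compares 1 library with 1 library, and the gap between the differences was not tested. NCAPH stood at or below 1.07 FPKM in both libraries with GSK458.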

How the results depend on the processing

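Of 142 values under alternatives, 129 stayed within 1.5 times (for medians, within that distance and on the same side of 2-fold) and none changed sign past 2-fold. Many of the 129 had little or no room to move, so the tally is no measure of robustness. All 10 members pass the filter, so dropping it leaves their values as they were. Counts of 0 that stayed 0 are included. Median-of-ratios scaling moved the medians over all tested genes by −0.0033 at most. With a pseudocount of 5 FPKM, the combination against the control had 3 members at least 2-fold lower and the median was −0.92. The same pseudocount gave 7 members for GSK458 against the control and 6 for the combination against As2O3, in place of 8. Both counts are among the 129. In the combination against GSK458, 2 members were at least 2-fold higher with a pseudocount of 0.1 FPKM (170 of 12260 tested genes), 0 with 5 FPKM (37 genes), and 2 at a threshold of 1.5-fold (269 genes), beside 1 member and 79 genes in the main setting. The ratio of condensin I to condensin II depended on the subunits used. Without NCAPD2 and NCAPD3 it was 0.476 with As2O3, 0.134 with GSK458, 0.213 with both and 0.50 in the control. Without NCAPH and NCAPH2 it was 1.55 with As2O3, 2.34 with GSK458, 2.26 with both and 1.55 in the control, so that it was higher with GSK458 than in the control. As geometric means it was 0.406 with GSK458 and 0.568 with both. These shifts follow from how the ratio is built, since NCAPD2 and NCAPH2 carry much of the sums. Rescaling to equal sums, with 12954 genes then passing the filter, moved the median of all tested genes by −0.10 for GSK458 minus control. No paired analysis was possible because each group has 1 library. The unknown depth limits the precision of low values such as those of NCAPH with GSK458.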

Other observations

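Some related genes departed from additivity by more than any of the 10 members, and they were picked after their values were seen. The departure was 1.42 for FOXM1, at 17.97 FPKM with As2O3, 1.65 FPKM with GSK458, 5.41 FPKM with both and 20.0 FPKM in the control. It was 1.33 for MKI67, 1.17 for BIRC5 and 0.88 for the kinase PLK1, beside 0.77 for TOP2A. PTTG1 went the other way at −0.65, with 297 FPKM with As2O3, 83.6 FPKM with GSK458, 71.5 FPKM with both and 221 FPKM in the control. STAG1, a variant subunit of the cohesin ring, stood at 6.07 FPKM with As2O3, against 9.54 to 11.98 FPKM in the other 3 libraries.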
